A study of Homo sapiens with 60 samples.

Results

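The genes described here are 35 aminoacyl-tRNA synthetases, 19 cytosolic and 16 mitochondrial, in A549 cells treated with herbal extracts. They were listed by name, with earlier results of these data known. Each symbol on the list was matched to 1 Ensembl identifier among the 60675 identifiers of the deposited count tables. All 35 were found and passed the filter on low counts. The cytosolic members are AARS1, CARS1, EPRS1, FARSA, FARSB, GARS1, HARS1, IARS1, KARS1, LARS1, MARS1, NARS1, QARS1, RARS1, SARS1, TARS1, VARS1, WARS1 and YARS1. The mitochondrial members are AARS2, CARS2, EARS2, FARS2, HARS2, IARS2, LARS2, MARS2, NARS2, PARS2, RARS2, SARS2, TARS2, VARS2, WARS2 and YARS2.

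An aminoacyl-tRNA synthetase joins an amino acid to its transfer RNA (tRNA), the step that fixes the meaning of the genetic code. Most amino acids have a cytosolic enzyme and a separate enzyme, also encoded in the nucleus, that is imported into mitochondria and serves the few proteins made there. GARS1 and KARS1 each serve both compartments, EPRS1 joins glutamate and proline in 1 protein, and FARSA and FARSB are the alpha and beta subunits of the cytosolic phenylalanine enzyme. When uncharged tRNA accumulates, the kinase GCN2 slows translation and raises production of the transcription factor ATF4, whose known targets include many cytosolic synthetase genes and enzymes that make and import amino acids.

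A549 is an established human lung carcinoma line. The cells were exposed for 24 h to 8 extracts at 3 concentrations or to vehicle, and RNA-seq gene counts were available for 60 libraries in 25 groups. Soshiho-tang and Yijin-tang, both multi-herb formulas extracted with water, were used at 20, 100 and 500 µg/mL (low, medium and high), and so were Schisandrae Fructus, Liriopis seu Ophiopogonis Tuber, Longan Arillus and Zizyphi Semen, single herbs extracted with 70% ethanol. Polygalae Radix was used at 15.2, 76 and 380 µg/mL and Aucklandiae Radix at 14.8, 74 and 370 µg/mL, both as ethanol extracts with 1 library per concentration. Each other group had 3 libraries, except that the 3 Soshiho-tang groups had 2 (replicates 2 and 3). The 3 vehicle libraries received DMSO, at 0.1% per their labels and 2% per the series' design text. The sample titles place all 60 libraries in batch C. The first part of each library name differs between vehicle and extracts and is read here as a library set. What it stands for is not stated in the labels. Soshiho-tang and Yijin-tang share set 8, Liriopis and Schisandrae set 9, Longan and Zizyphi set 10, and Polygalae and Aucklandiae set 11. Extract and set therefore cannot be told apart when an extract is compared with vehicle, while high against low concentration and the extracts within 1 set can be compared inside a set. Whether replicates came from separate cultures is not stated in the labels. The p-values thus cover the spread among these libraries alone, and that spread may be technical.

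The libraries held between 18.0 M and 33.8 M counts (median 23.9 M). All 5 epithelial markers of the line (KRT8, KRT18, KRT7, EPCAM, CDH1) reached 1 CPM (counts-per-million, scaled by the trimmed mean of M values) in vehicle cells, and 0 of 6 endothelial, 2 of 8 leukocyte (CD14, CD68) and 3 of 8 fibroblast markers (COL1A1, COL3A1, THY1) did. KDR, CD3E and HLA-DRA were at 0. In these bulk samples fewer cells and less RNA per cell cannot be told apart. Replicate 3 of Longan Arillus low and replicate 3 of Soshiho-tang medium stood apart from all others: the slope of log2 change on log2 transcript length was -0.51 in the Longan and -0.42 in the Soshiho-tang library, against -0.08 to 0.14 in the other 58. Counts of members called are therefore given from all 54 replicated libraries and again from the 52 libraries left without this pair. The 52-library fit had a lower common dispersion (0.00244 against 0.0173). A gene was called where edgeR's quasi-likelihood test gave a Benjamini-Hochberg adjusted p under 0.05 over all genes tested (17826 with 54 libraries, 18228 with 52). Where groups are said not to overlap, the share of all genes that separate in this way is not given. With so few libraries per group some genes separate without any change, so a lack of overlap only describes the values.

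In vehicle cells the cytosolic transcripts were the more abundant class. Per kilobase of transcript, the cytosolic members lay between 24.5 CPM per kb (CARS1, the cysteine enzyme) and 109.9 CPM per kb (KARS1, the lysine enzyme), with a median of 46.9. The mitochondrial members lay between 2.95 CPM per kb (PARS2, proline) and 59.9 CPM per kb (IARS2, isoleucine), with a median of 9.62. All 19 cytosolic members were above the mitochondrial median. Without the correction for length, the summed level was 3352 CPM for the cytosolic and 588 CPM for the mitochondrial class. Over the means of the 25 groups, 11 of 19 cytosolic and 0 of 16 mitochondrial members had their highest level in Soshiho-tang high. All 19 cytosolic and 10 of 16 mitochondrial members had their lowest level in the single Polygalae Radix high library, and KARS1, AARS2, EARS2, IARS2, MARS2 and PARS2 had their highest level in vehicle. These counts of extremes were not taken over all genes. In Polygalae Radix high, 27.6% of 9534 genes with a mean of at least 10 CPM were at least 1.5-fold lower than in vehicle.

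**Figure D1:**
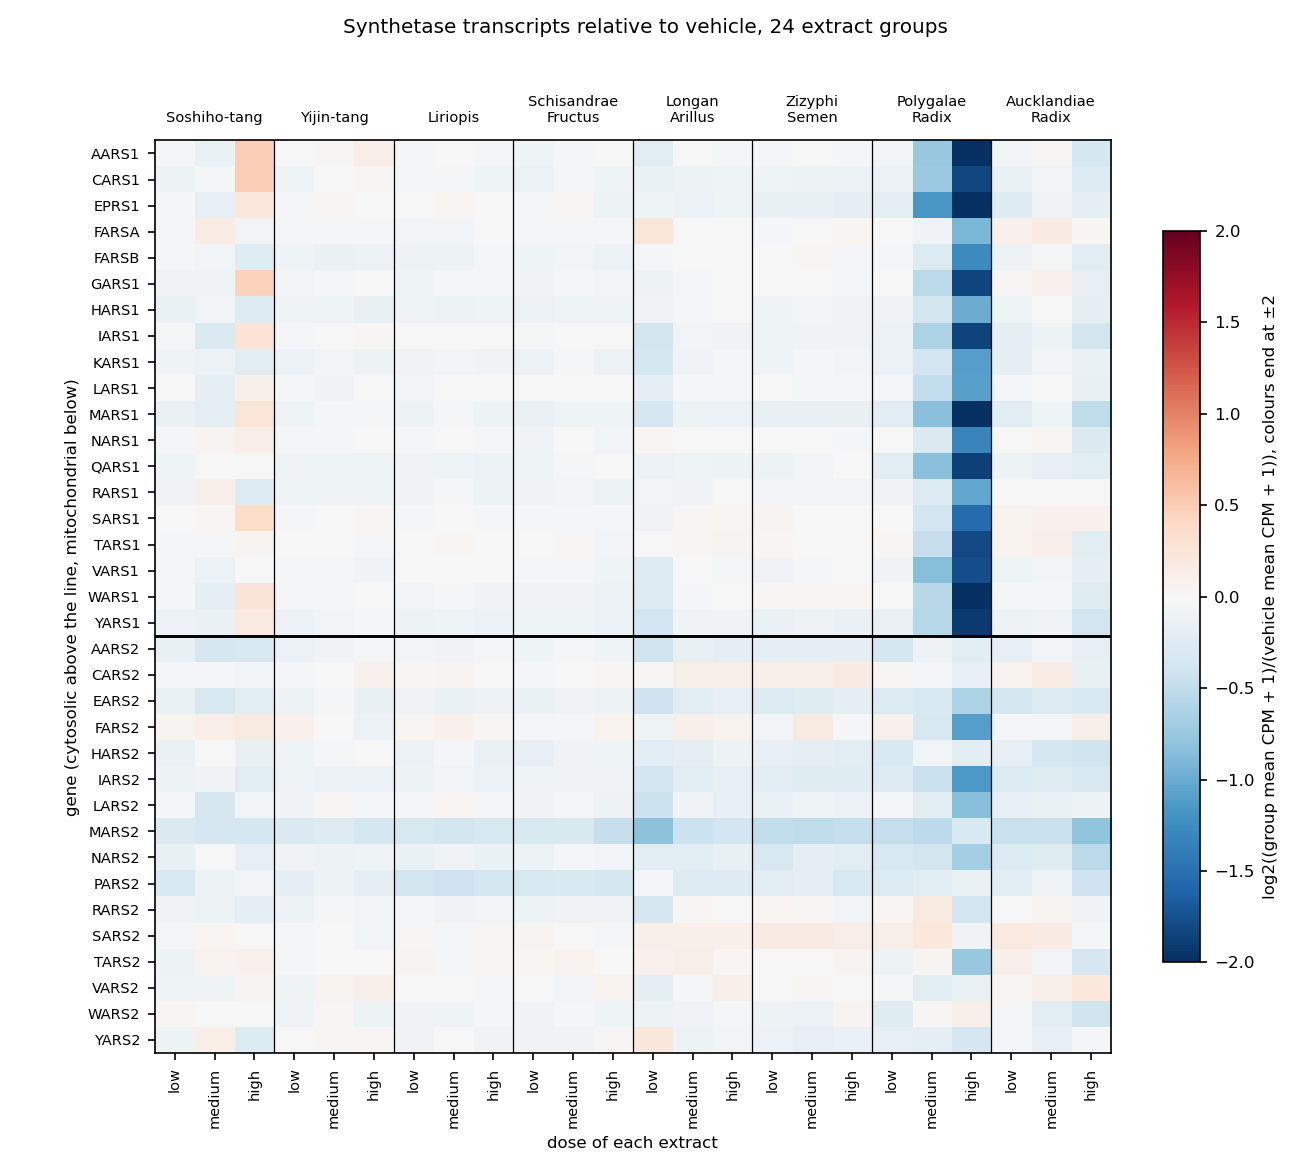
Heat map of the log2 ratio of each group's mean CPM to the vehicle mean, with 1 CPM added to both, for the 19 cytosolic members (above the line) and the 16 mitochondrial members (below it), with groups in columns ordered low to high within each extract. The cytosolic rows are darkest blue in Polygalae Radix high, and 11 of them are reddest in Soshiho-tang high.

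At the high concentration of Soshiho-tang, 4 cytosolic synthetases rose against vehicle: CARS1, GARS1, AARS1 and SARS1, which charge the tRNAs of cysteine, glycine, alanine and serine. FARSB, HARS1 and RARS1 fell, and so did mitochondrial IARS2. The same 4 genes rose against the low concentration of the same extract and against Yijin-tang high, the other water extract of that library set. The increases were between 0.39 and 0.52 on the log2 scale against vehicle.

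CARS1 was at 93.2 and 92.7 CPM in Soshiho-tang high, against 66.1, 65.3 and 66.2 CPM in vehicle. It was at 61.6 and 61.6 CPM in Soshiho-tang low, and at 64.4, 68.5 and 68.4 CPM in Yijin-tang high. Both high-concentration libraries lay above all libraries of the other 3 groups. The log2 fold change was 0.51 ± 0.07 (SE) against vehicle (edgeR, Benjamini-Hochberg adjusted p = 1.82e-06), 0.59 ± 0.08 against low (edgeR, adjusted p = 1.45e-06) and 0.47 ± 0.07 against Yijin-tang high (edgeR, adjusted p = 2.32e-05).

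GARS1, whose product charges glycine tRNA in both compartments, was at 309.6 and 304.7 CPM in Soshiho-tang high, against 220.7, 226.2 and 223.7 CPM in vehicle. It was at 212.5 and 212.9 CPM in Soshiho-tang low, and at 226.4, 223.4 and 227.8 CPM in Yijin-tang high. The high-concentration libraries again stood clear of every library of these groups. The log2 fold change was 0.48 ± 0.06 against vehicle (edgeR, adjusted p = 7.82e-07), 0.53 ± 0.07 against low (edgeR, adjusted p = 1.25e-06) and 0.44 ± 0.06 against Yijin-tang high (edgeR, adjusted p = 6.77e-06).

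AARS1 was at 406.0 and 414.6 CPM in Soshiho-tang high, against 285.8, 296.9 and 288.2 CPM in vehicle. It was at 275.7 and 287.6 CPM in Soshiho-tang low, and at 315.0, 315.3 and 322.9 CPM in Yijin-tang high. Soshiho-tang high did not overlap any of the 3 groups, and Yijin-tang high lay above all vehicle libraries. The log2 fold change was 0.52 ± 0.09 against vehicle (edgeR, adjusted p = 0.000241), 0.54 ± 0.10 against low (edgeR, adjusted p = 0.00108) and 0.37 ± 0.09 against Yijin-tang high (edgeR, adjusted p = 0.0333). The calls against low and against Yijin-tang high each depended on single libraries: the first was lost without Soshiho-tang low replicate 2 (adjusted p = 0.0746, edgeR), the second in each fit that left out 1 library of either group (adjusted p = 0.0745 to 0.362, edgeR). The second was lost with no filter on low counts too (adjusted p = 0.201, edgeR).

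SARS1 was at 111.9 and 112.4 CPM in Soshiho-tang high, against 84.7, 89.0 and 86.9 CPM in vehicle. It was at 87.4 and 84.8 CPM in Soshiho-tang low, and at 87.7, 85.3 and 93.1 CPM in Yijin-tang high. There was no overlap with any of these groups. The log2 fold change was 0.39 ± 0.08 against vehicle (edgeR, adjusted p = 0.00116), 0.38 ± 0.09 against low (edgeR, adjusted p = 0.0099) and 0.34 ± 0.08 against Yijin-tang high (edgeR, adjusted p = 0.0145). The call against low was lost in each of the 4 fits without 1 library, and that against Yijin-tang high in 4 of 5, all but the fit without Yijin-tang high replicate 3 (edgeR, adjusted p = 0.0212 to 0.255). With no filter on low counts SARS1 was called against vehicle alone (edgeR, adjusted p = 0.132 against low and 0.175 against Yijin-tang high).

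**Figure D2:**
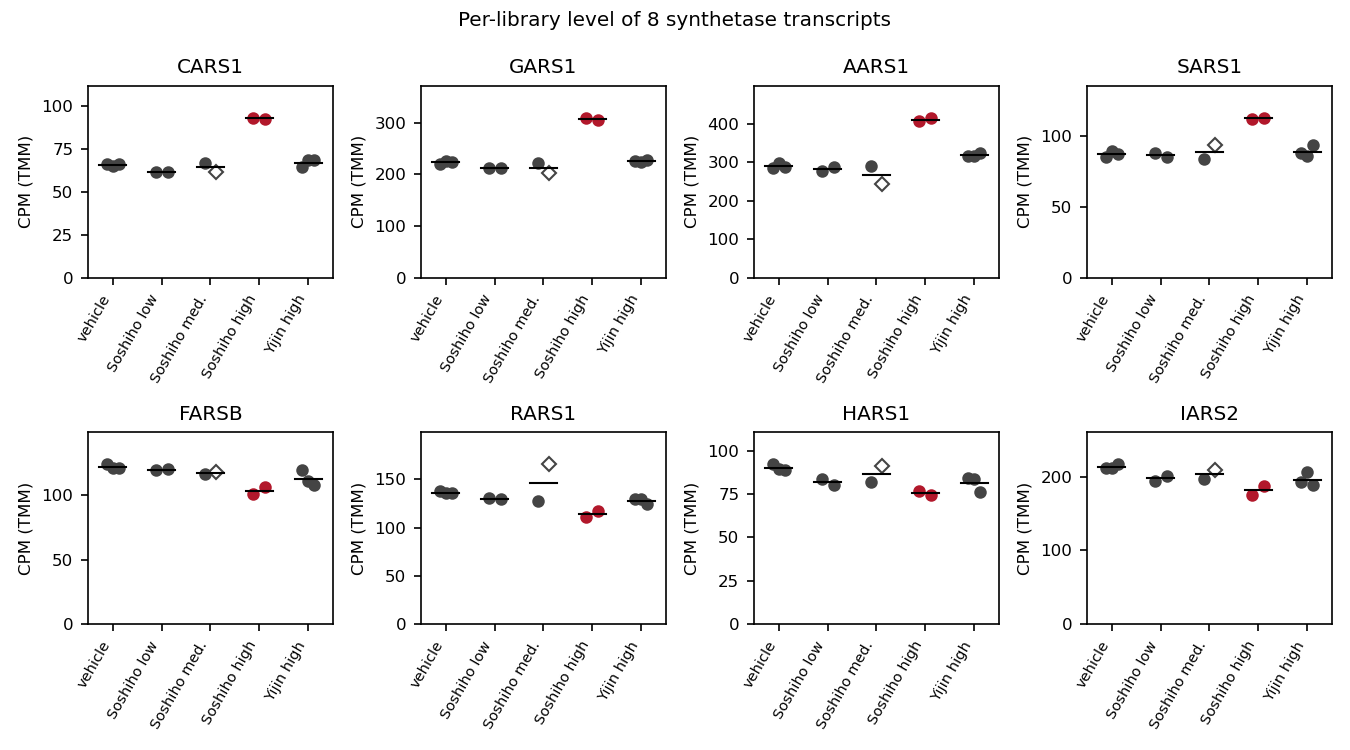
CPM of synthetase genes in each library, with 1 point per library and groups ordered vehicle, Soshiho-tang low, medium and high, then Yijin-tang high; the open diamond is Soshiho-tang medium replicate 3, which stood apart, and short lines are group means. Both Soshiho-tang high points of CARS1 (93.2 and 92.7 CPM) lie above every other point of its panel.

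Of the 19 cytosolic members, 4 were called higher and 3 lower in Soshiho-tang high against vehicle, with a median log2 change of 0.15. Over all genes tested, 3.02% were called higher and 2.05% lower, with a median of 0.00. With 52 libraries, 11 cytosolic members were called higher and 4 lower, beside 10.2% of all genes higher and 11.3% lower. The members called higher only in that fit were EPRS1, IARS1, LARS1, MARS1, NARS1, WARS1 and YARS1. Against Soshiho-tang low, 4 cytosolic members were called higher and 1 lower (FARSB), with a median of 0.17, beside 1.17% of all genes higher and 0.404% lower. With 52 libraries, 10 were called higher and 3 lower, beside 5.02% and 4.49% of all genes. Against Yijin-tang high, 4 were called higher and 0 lower, with a median of 0.13, beside 0.87% higher and 0.325% lower of all genes. With 52 libraries, 10 were called higher and 2 lower, beside 4.5% and 3.87%.

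Among the genes called higher only with 52 libraries, MARS1, the methionine enzyme, was at 322.4 and 305.5 CPM in Soshiho-tang high and at 261.3, 266.0 and 264.8 CPM in vehicle. IARS1, the isoleucine enzyme, was at 495.8 and 490.6 CPM in Soshiho-tang high, against 409.3, 410.0 and 410.7 CPM in vehicle. The groups did not overlap for these genes, which were picked after their values were seen. With 54 libraries neither was called (edgeR, adjusted p = 0.156 for MARS1 and 0.35 for IARS1). The gene span of MARS1, introns included, overlaps that of DDIT3 by 982 bases on the other strand. DDIT3 was at 17.4 and 18.3 CPM in Soshiho-tang high, against 7.00, 7.26 and 7.58 CPM in vehicle. The kit marks strand, per the labels, but the strand setting of the counting is not given in the sources used here, so reads of the shared stretch cannot be assigned with certainty.

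The decreases were smaller. RARS1, the arginine enzyme, was at 110.9 and 117.0 CPM in Soshiho-tang high, against 138.3, 135.5 and 135.7 CPM in vehicle, a log2 change of -0.24 ± 0.06 (edgeR, adjusted p = 0.00753). HARS1, the histidine enzyme, was at 76.6 and 74.2 CPM in Soshiho-tang high, against 92.0, 89.5 and 88.7 CPM in vehicle, a change of -0.24 ± 0.05 (edgeR, adjusted p = 0.00163). Neither gene overlapped between the groups, but in Soshiho-tang low they were already at 131.0 and 129.3 CPM (RARS1) and at 83.4 and 80.4 CPM (HARS1), below every vehicle library, and neither was called between high and low with 54 libraries.

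FARSB was at 101.2 and 106.4 CPM in Soshiho-tang high, against 124.1, 121.5 and 121.3 CPM in vehicle and 119.6 and 120.5 CPM in Soshiho-tang low. The log2 change was -0.22 ± 0.05 against vehicle (edgeR, adjusted p = 0.00599) and -0.21 ± 0.06 against low (edgeR, adjusted p = 0.0417). The call against low was lost in each of the 4 fits without 1 library (edgeR, adjusted p = 0.113 to 0.564). The other subunit of that enzyme was not called: FARSA was at 72.2 and 67.1 CPM in Soshiho-tang high, against 70.4, 72.8 and 73.4 CPM in vehicle, and the groups overlapped. Without Soshiho-tang high replicate 2, FARSB, RARS1 and IARS2 were not called against vehicle (edgeR, adjusted p = 0.204, 0.235 and 0.355), and without replicate 3, HARS1 was not (adjusted p = 0.0821). With no filter on low counts none of these 4 genes was called against vehicle (edgeR, adjusted p = 0.131 for FARSB, 0.117 for RARS1, 0.0941 for HARS1 and 0.215 for IARS2).

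**Figure D3:**
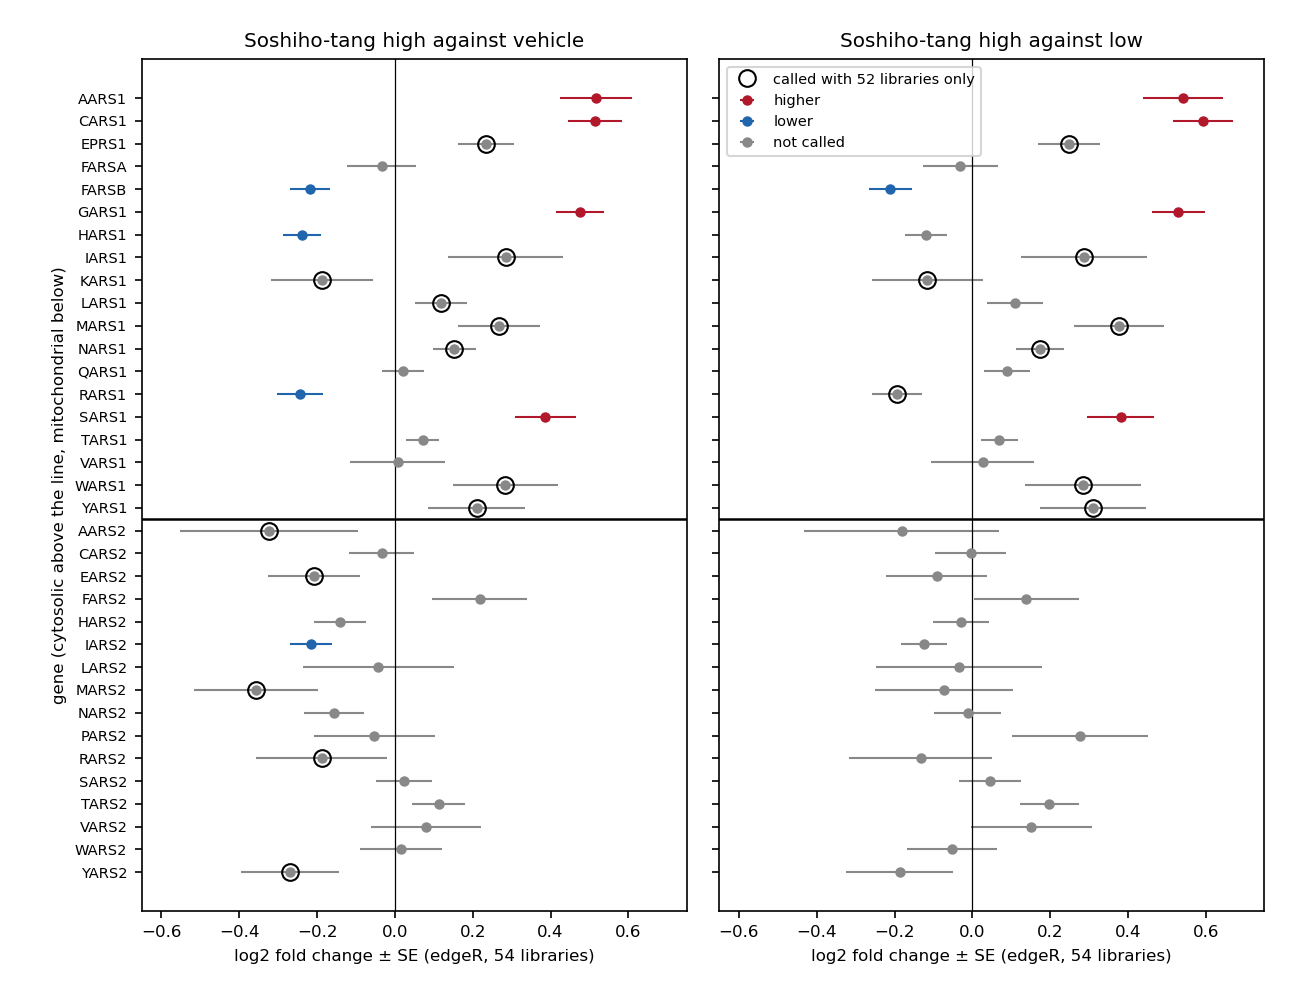
Log2 fold change ± SE (edgeR, 54 libraries) of each member in Soshiho-tang high against vehicle (left) and against Soshiho-tang low (right), cytosolic members above the line. AARS1, CARS1, GARS1 and SARS1 are red (higher) in both panels, and no mitochondrial member is.

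In Soshiho-tang high against vehicle, 0 of 16 mitochondrial members were called higher and 1 lower, with a median log2 change of -0.10, beside the 3.02% of all genes called higher and 2.05% lower (4 with unadjusted p under 0.05 by edgeR, 0 higher and 1 lower by DESeq2). IARS2 was at 175.1 and 187.4 CPM in Soshiho-tang high, against 211.7, 211.3 and 216.4 CPM in vehicle, a log2 change of -0.22 ± 0.05 (edgeR, adjusted p = 0.00982). It was at 194.2 and 200.8 CPM in Soshiho-tang low, between these groups, and was not called between high and low (edgeR, adjusted p = 0.504). With 52 libraries AARS2, EARS2, MARS2, RARS2 and YARS2 were also called lower against vehicle, beside 11.3% of all genes. Over the means of the 25 groups, AARS2, EARS2, IARS2 and MARS2 were highest in vehicle, so their decreases are not particular to Soshiho-tang high. Against Soshiho-tang low, 0 of 16 mitochondrial members were called with either set of libraries (edgeR; 2 with 54 libraries and 3 with 52 with unadjusted p under 0.05, and 0 by DESeq2), and the median was -0.03. Against Yijin-tang high, 0 were called with 54 libraries (edgeR; 4 with unadjusted p under 0.05, and 0 by DESeq2) and YARS2, the tyrosine enzyme, lower with 52.

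The mean log2 ratio to vehicle over the 19 cytosolic members was 0.13 in Soshiho-tang high replicate 2 and 0.11 in replicate 3, and over the 16 mitochondrial members it was -0.13 in replicate 2 and -0.09 in replicate 3. The cytosolic mean thus exceeded the mitochondrial one by 0.25 and 0.20 in these libraries, while the difference lay between -0.01 and 0.01 in the 3 vehicle libraries. The highest difference in any other replicated group was 0.11, in the Longan Arillus low library that stood apart; the other 2 libraries of that group were at 0.07 and 0.03. For 15 pairs of a cytosolic and a mitochondrial gene of the same amino acid, the levels were compared gene by gene. Of these 15, the log2 ratio of cytosolic to mitochondrial level was above every vehicle library in both Soshiho-tang high libraries for 8, and below every vehicle library for 3. Set against Soshiho-tang low, the ratio was above for 9 and below for 3, and against Yijin-tang high above for 7 and below for 2. The same count was not taken over other gene pairs. With so few libraries per group some ratios separate without any change, so these counts have no background to be read against. The log2 ratio of CARS1 to CARS2 averaged 1.86 in Soshiho-tang high, 1.27 in Soshiho-tang low and 1.31 in vehicle. That of SARS1 to SARS2 averaged 1.07 in Soshiho-tang high, 0.74 in Soshiho-tang low and 0.71 in vehicle. FARS2 enters 2 of the 15 ratios, one with each subunit of the cytosolic enzyme.

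**Figure D4:**
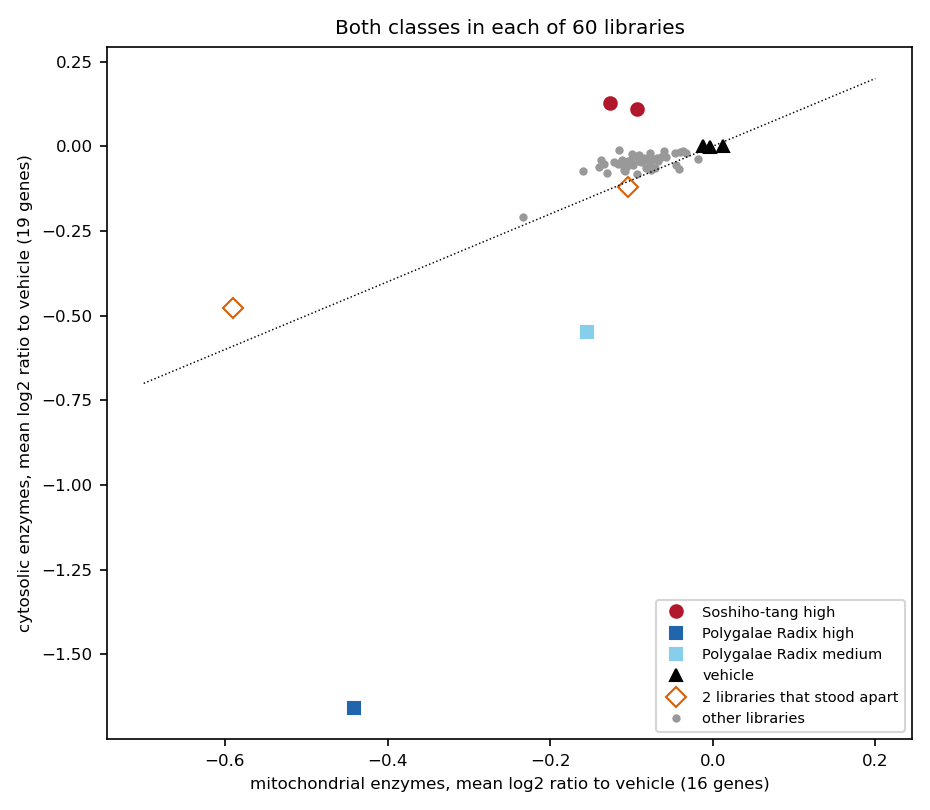
Mean log2 ratio to the vehicle mean over the 16 mitochondrial members (horizontal axis) and over the 19 cytosolic members (vertical axis), 1 point for each of 60 libraries; the dotted line marks equal ratios. The Soshiho-tang high libraries (cytosolic means 0.13 and 0.11) lie above the cloud of other libraries, and Polygalae Radix high lies lowest on the vertical axis (-1.66, with a mitochondrial mean of -0.44).

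The promoters of the members were searched for TGATGNAA, the core of the C/EBP-ATF element that ATF4 binds with its partners, on both strands (TTNCATCA on the other), in the RefSeq windows of 250 bases before to 50 after each start (GRCh38.p14). The table of windows holds 16 of the 19 cytosolic and 14 of the 16 mitochondrial members; LARS1, VARS1, YARS1, AARS2 and VARS2 are not in it. The motif was found in 7 of 16 cytosolic genes (AARS1, CARS1, GARS1, IARS1, MARS1, NARS1, TARS1) and in 1 of 14 mitochondrial genes (YARS2), against 1217 of 27305 genes in the whole table (4.46%) and 1270 of 35116 windows (3.62%). Of the cytosolic genes in the table, it was in 3 of the 4 called higher in Soshiho-tang high against vehicle with 54 libraries, 0 of the 3 called lower and 4 of the 9 not called. With 52 libraries it was in 6 of 9 called higher, 0 of 4 called lower and 1 of 3 not called. SARS1, which rose, has no match in its window. The stretches around the match are shown for the 3 genes that rose and carry it, for MARS1 and IARS1, called higher with 52 libraries, and for the mitochondrial match, on the strand of each gene with the match in capitals.
CARS1, minus strand, chr11:3057394-3057451: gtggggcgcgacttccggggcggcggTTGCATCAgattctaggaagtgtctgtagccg
GARS1, plus strand, chr7:30594819-30594878: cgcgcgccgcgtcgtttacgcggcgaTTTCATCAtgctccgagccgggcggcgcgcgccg
AARS1, minus strand, chr16:70289660-70289719: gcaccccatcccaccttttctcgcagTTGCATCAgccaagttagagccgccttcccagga
MARS1, plus strand, chr12:57488038-57488097: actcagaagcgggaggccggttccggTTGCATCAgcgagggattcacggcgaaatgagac
IARS1, minus strand, chr9:92293677-92293736: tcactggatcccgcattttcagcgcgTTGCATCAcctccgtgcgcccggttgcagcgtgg
YARS2, minus strand, chr12:32756061-32756120: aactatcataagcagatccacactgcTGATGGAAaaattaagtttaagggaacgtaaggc
CARS1, AARS1, MARS1 and IARS1 carry the same 8 letters, TTGCATCA, and GARS1 carries TTTCATCA, which differs at the free position of the motif. The match begins 2 bases before the start in CARS1, 4 in MARS1, 13 in IARS1, 33 in GARS1, 187 in AARS1 and 197 in YARS2. The stretches of TARS1 and NARS1, which also carry a match, are not shown. TARS1, not called against vehicle in either fit, carries TTGCATCA too. NARS1, called higher with 52 libraries, carries TGATGCAA. YARS2, the gene of the mitochondrial match, was called lower against vehicle with 52 libraries. A match describes these letters only and is no evidence that a factor binds there.

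Genes that work beside the synthetases were read from lists chosen with earlier results of these data known. Of 19 other ATF4 targets tested, 14 rose in Soshiho-tang high against vehicle and 1 fell (ATF5), with a median log2 change of 0.67, beside the 3.02% of all genes called higher. Against Soshiho-tang low 14 rose and 0 fell, with a median of 0.83, beside 1.17% of all genes higher and 0.404% lower. With 52 libraries 16 rose and 1 fell against vehicle, where SLC7A5 and CEBPB were added, and 16 rose and 0 fell against low. The shares of all genes with 52 libraries were 10.2% higher and 11.3% lower against vehicle, and 5.02% higher and 4.49% lower against low. STC2, a secreted glycoprotein, was at 71.3 and 66.1 CPM in Soshiho-tang high, against 20.3, 20.7 and 22.3 CPM in vehicle, a log2 change of 1.72 ± 0.12 (edgeR, adjusted p = 2.26e-13). TRIB3, a pseudokinase, was at 203.5 and 193.5 CPM in Soshiho-tang high, against 60.4, 60.4 and 65.1 CPM in vehicle, a change of 1.70 ± 0.09 (edgeR, adjusted p = 3.39e-17). ATF3 and DDIT3, both transcription factors of the stress response, changed by 1.55 and 1.31. These changes were larger than that of any synthetase, whose largest was the 0.52 of AARS1.

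ATF4 itself was at 335.6 and 336.0 CPM in Soshiho-tang high, against 259.3, 272.5 and 268.1 CPM in vehicle, a log2 change of 0.35 ± 0.07 (edgeR, adjusted p = 0.00127). XPOT, which exports tRNA from the nucleus, was at 314.1 and 306.9 CPM in Soshiho-tang high, against 249.1, 253.2 and 251.2 CPM in vehicle, a change of 0.32 ± 0.07 (edgeR, adjusted p = 0.0042). Both rose against Soshiho-tang low as well (log2 changes of 0.45 and 0.31), and in neither gene did the groups overlap. Of the 6 genes of tRNA export and amino acid sensing, these 2 rose and EIF2S1, the alpha subunit of the initiation factor that GCN2 phosphorylates, fell by 0.19 (edgeR, adjusted p = 0.0186). With 52 libraries XPO5, an export receptor, was also called lower. Of all genes, 3.02% were called higher and 2.05% lower with 54 libraries, and 10.2% higher and 11.3% lower with 52. EIF2AK4, which encodes GCN2, was not called (log2 change of 0.12).

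Of the 7 partners in the synthetase complex and in elongation (AIMP1, AIMP2, EEF1E1, EEF1A1, EEF1B2, EEF1D and EEF1G), 0 were called in Soshiho-tang high against vehicle with 54 libraries by edgeR (0 with unadjusted p under 0.05) and 2 lower with 52 (AIMP2, EEF1G). Of 15 genes that process, modify or deliver mitochondrial tRNA, 0 rose and 1 fell with 54 libraries, and 5 fell with 52. For both lists the share of all genes called lower was 2.05% with 54 libraries and 11.3% with 52. TRMU, which thiolates mitochondrial tRNA, was called in both fits. It was at 24.8 and 26.7 CPM in Soshiho-tang high, against 34.1, 33.5 and 34.4 CPM in vehicle, a log2 change of -0.38 ± 0.07 (edgeR, adjusted p = 0.000277), and it fell against Soshiho-tang low too (-0.28 ± 0.08; edgeR, adjusted p = 0.04). The groups did not overlap.

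The summed epithelial, fibroblast and leukocyte markers did not overlap between Soshiho-tang high and vehicle. The epithelial markers were 8004 to 8269 CPM in Soshiho-tang high against 8459 to 8839 CPM in vehicle. In Soshiho-tang low they were 7798 to 7871 CPM, also below vehicle. The fibroblast markers were 34.1 to 37.5 CPM in Soshiho-tang high against 42.0 to 43.2 CPM in vehicle. The leukocyte markers were 17.5 to 17.9 against 13.7 to 15.6 CPM. The endothelial markers overlapped, at 0.26 to 0.48 CPM in Soshiho-tang high and 0.43 to 0.52 CPM in vehicle. The part of these marker levels in the results was not tested.

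The rise of CARS1, GARS1 and AARS1 was not seen at the lower concentrations of Soshiho-tang. RARS1, HARS1 and IARS2 were below every vehicle library in Soshiho-tang low, as given above. In Soshiho-tang medium, CARS1 was at 67.0 and 61.7 CPM, GARS1 at 221.9 and 202.0 CPM and AARS1 at 289.7 and 242.2 CPM, close to or below the vehicle levels, with the lower value of each in the replicate that stood apart. Of the 35 members, 0 were called against vehicle in Soshiho-tang medium with either set of libraries (edgeR; 4 with 54 libraries and 5 with 52 with unadjusted p under 0.05, and 1 by DESeq2), beside 1.74% of all genes with 54 libraries and 0.944% with 52. With 52 libraries replicate 2 is the only library of that group, and it is assumed to vary like the libraries of the other groups. In Soshiho-tang low, 0 were called with 54 libraries (edgeR; 2 with unadjusted p under 0.05, and 0 by DESeq2) and 1 with 52, beside 0.0449% and 3.06% of all genes.

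No other replicated extract gave a called increase of a synthetase at the high concentration against vehicle with 54 libraries. With edgeR and 54 libraries, 0 of 35 members were called against vehicle in the high groups of Yijin-tang, Schisandrae Fructus, Liriopis seu Ophiopogonis Tuber and Longan Arillus, where 3 or 4 members had an unadjusted p under 0.05 and DESeq2 called 0, 1, 0 and 1. The shares of all genes called were 0.544%, 1.02%, 0.32% and 1.33% in the same order. With 52 libraries, 3, 6, 2 and 4 members were called, beside 7.17%, 9.15%, 7.27% and 13.8% of all genes. In Yijin-tang these 3 were AARS1, higher, and HARS1 and MARS2, lower. High against low concentration called 0 members in Schisandrae and Liriopis with either set (edgeR; 0 and 0 with 54 libraries, and 4 and 0 with 52, with unadjusted p under 0.05, and 0 by DESeq2), beside 0.00561% and 0.0% of all genes with 54 libraries and 1.54% and 0.0% with 52. In Yijin-tang it called 0 with 54 libraries (edgeR; 0 with unadjusted p under 0.05, and 0 by DESeq2) and 1, AARS1, with 52, beside 0.146% and 0.987% of all genes. Schisandrae high against Liriopis high, and Longan high against Zizyphi high, called 0 members each with either set (edgeR; 2 each with 54 libraries, and 7 and 5 with 52, with unadjusted p under 0.05, and 0 by DESeq2), beside 0.0561% and 0.0112% of all genes with 54 libraries and 2.97% and 0.719% with 52.

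In Zizyphi Semen, 3 mitochondrial members fell against vehicle at the high concentration. IARS2 was at 180.1, 182.4 and 177.7 CPM in Zizyphi high, against 211.7, 211.3 and 216.4 CPM in vehicle, a log2 change of -0.23 ± 0.05 (edgeR, adjusted p = 0.00388). MARS2, the mitochondrial methionine enzyme, was at 11.8, 14.3 and 12.3 CPM in Zizyphi high, against 17.1, 18.4 and 19.3 CPM in vehicle, a change of -0.50 ± 0.14 (edgeR, adjusted p = 0.0411). HARS2, the mitochondrial histidine enzyme, was at 32.1, 32.1 and 31.6 CPM in Zizyphi high, against 38.2, 38.7 and 36.0 CPM in vehicle, a change of -0.22 ± 0.06 (edgeR, adjusted p = 0.0246). None of these genes overlapped between the groups, but the calls of MARS2 and HARS2 rested on single libraries: over the fits without 1 library, the adjusted p (edgeR) was 0.0543 to 0.179 for MARS2, 0.0492 to 0.138 for HARS2 and 0.0171 to 0.0396 for IARS2. With no filter on low counts none of the 3 was called (edgeR, adjusted p = 0.0928 for IARS2, 0.0871 for MARS2 and 0.16 for HARS2).

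The levels at the other concentrations of Zizyphi were as follows. IARS2 was at 183.0, 184.1 and 176.1 CPM in Zizyphi low and at 180.3, 182.9 and 179.0 CPM in Zizyphi medium, within a few CPM of Zizyphi high. The log2 change of MARS2 against vehicle was -0.50 in Zizyphi low, -0.53 in medium and -0.50 in high, and that of HARS2 was -0.15 in low, -0.17 in medium and -0.22 in high. High against low concentration called 0 members with either set (edgeR; 0 with 54 libraries and 2 with 52 with unadjusted p under 0.05, and 0 by DESeq2), beside 0.028% and 1.15% of all genes. The 3 calls at the high concentration stood beside 3.66% of all genes with 54 libraries, and 12 members were called with 52, beside 22.1%. These 12 went both ways and came from both classes. Mitochondrial CARS2 and SARS2 were higher, and cytosolic CARS1, EPRS1, MARS1 and YARS1 were among those lower. The shared set and the extract cannot be told apart here. MARS2 was also lower than vehicle in the mean of each of the 24 extract groups, which spans all 4 sets: those means ran between 9.87 and 15.0 CPM, against 18.2 CPM in vehicle.

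At medium and low concentrations of these extracts the count of members called against vehicle ran between 0 and 11 with 54 libraries. With 54 libraries, 0 members were called in Yijin-tang, Schisandrae and Liriopis at either concentration (edgeR; 1 to 4 with unadjusted p under 0.05, and 0 by DESeq2). The shares of all genes were 0.101% in Yijin-tang medium and 0.146% in Yijin-tang low, 0.325% in Schisandrae medium and 0.342% in Schisandrae low, and 0.219% in Liriopis medium and 0.185% in Liriopis low. With 52 libraries, 1 and 2 members were called in Yijin-tang medium and low, 1 and 4 in Schisandrae, and 2 and 1 in Liriopis, beside 2.88% and 3.61%, 4.31% and 6.35%, and 3.66% and 3.89% of all genes. In Zizyphi medium 2 members fell (IARS2, MARS2) and in Zizyphi low 3 (those and NARS2), beside 6.25% and 5.99% of all genes; with 52 libraries 10 were called in each, beside 27.4% and 26.7%. In Longan medium 1 fell (IARS2), beside 2.3% of all genes, and 5 were called with 52 libraries, beside 18.1%. In Longan low 11 were called with 54 libraries, beside 35.9% of all genes, and 8 with 52, beside 25.1%. Longan high against low called 4 members with 54 libraries (IARS2 and MARS2 higher, FARSA and YARS2 lower), beside 18.8% of all genes, and 0 with 52 (edgeR; 1 with unadjusted p under 0.05, and 6 by DESeq2 with 54 libraries), beside 0.0878%. MARS2 was at 12.8, 12.1 and 4.75 CPM in the 3 Longan low libraries, and the lowest value belongs to the replicate that stood apart.

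In the single Polygalae Radix high library all 19 cytosolic synthetases were at least 1.5-fold lower than the vehicle mean. The median log2 ratio, with 1 CPM added to both levels, was -1.81, and the members ran between -3.06 (EPRS1) and -0.92 (FARSA). This extract has no replicates, so there is no test, and genes were counted where the mean level over the compared libraries was at least 10 CPM. Of the 9534 such genes, 27.6% were at least 1.5-fold lower and 10.3% at least 1.5-fold higher, with a median log2 ratio of -0.14. Among the 2855 genes within the range of vehicle levels of the cytosolic members, 1164 were at least 1.5-fold lower and the median was -0.41.

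EPRS1 averaged 231.5 CPM in vehicle and was at 204.2 CPM in Polygalae low, 103.1 CPM in medium and 26.8 CPM in high. AARS1 averaged 290.3 CPM in vehicle and was at 278.0 CPM in Polygalae low, 172.2 CPM in medium and 65.9 CPM in high, a log2 ratio of -2.12 at the high concentration. Both levels were lower at each higher concentration, and the low library was close to vehicle. WARS1, the tryptophan enzyme, was at 30.6 CPM in Polygalae high, against 133.1 CPM in vehicle, a log2 ratio of -2.09. MARS1 was at 62.9 CPM in Polygalae high, against 264.0 CPM in vehicle, a ratio of -2.05. CARS1 and GARS1, which rose with Soshiho-tang, had log2 ratios of -1.83 and -1.84.

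Of the mitochondrial members, 13 of 16 reached the 10 CPM minimum in that comparison. Of these, 5 were at least 1.5-fold lower, with a median log2 ratio of -0.34. Among the 8112 genes within the range of their vehicle levels, 2137 were at least 1.5-fold lower and the median was -0.14. The 5 were IARS2 (-1.15), LARS2 (-0.85), TARS2 (-0.76), NARS2 (-0.68) and EARS2 (-0.63). FARS2, PARS2 and WARS2 were below the minimum, with log2 ratios of -1.11, -0.13 and 0.10. SARS2 was at 50.4 CPM in Polygalae high and 53.2 CPM in vehicle. The log2 ratio of CARS1 to CARS2 was -0.40 in Polygalae high, against 1.31 in vehicle, so that the mitochondrial transcript had the more counts of that pair. The log2 ratio of SARS1 to SARS2 was -0.78, against 0.71 in vehicle. Not every pair moved this way. LARS1 to LARS2 was at 2.44 in Polygalae high and 2.65 in vehicle, and FARSB to FARS2 at 3.72 in both. FARSA to FARS2 was higher, at 3.31 against 2.96. A count over all pairs is not given for this extract.

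**Figure D5:**
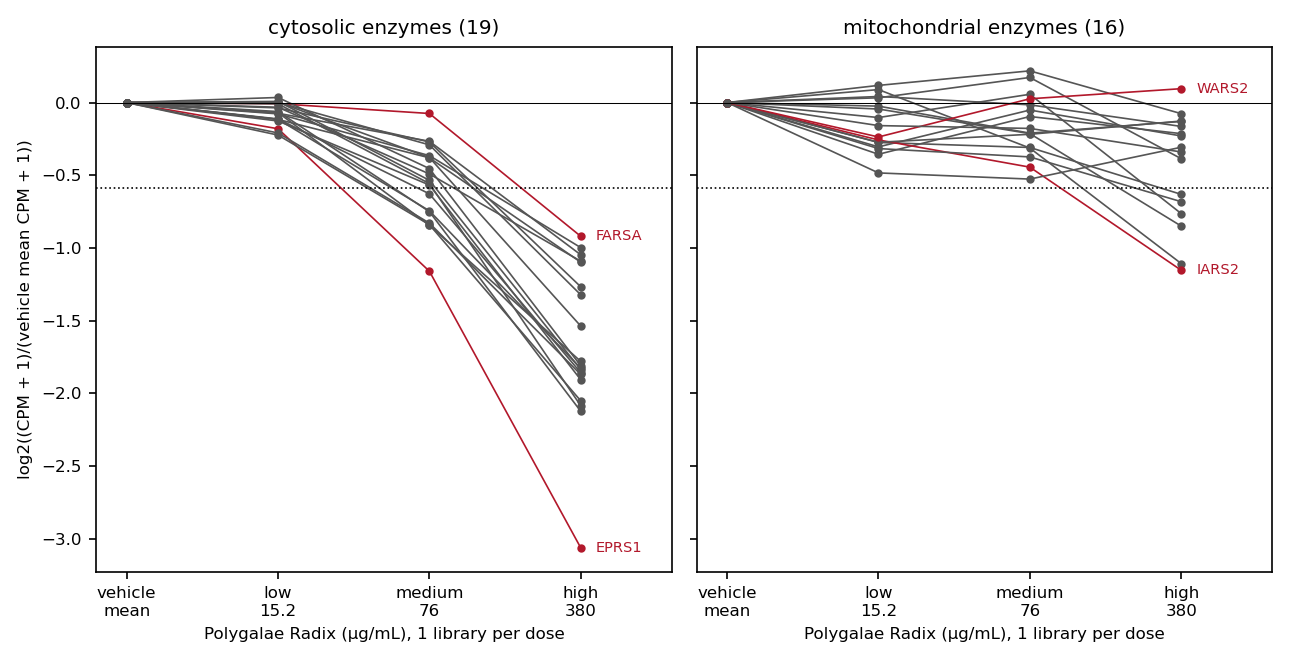
Log2 ratio to the vehicle mean (1 CPM added to both) of each member in the single Polygalae Radix libraries at 15.2, 76 and 380 µg/mL, cytosolic and mitochondrial members separately; the dotted line marks 1.5-fold lower. All 19 cytosolic members lie below the line at 380 µg/mL, between -3.06 and -0.92.

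The reduction followed the concentration. At low 0 of 19 cytosolic and 0 of 13 mitochondrial members were at least 1.5-fold lower than vehicle, beside 1.3% of all genes. At medium 7 of 19 cytosolic members (median -0.54) and 0 of 13 mitochondrial ones were, beside 4.68%. High against low gave 19 of 19 cytosolic (median -1.71) and 3 of 13 mitochondrial members lower, beside 23.8% of all genes lower and 11.1% higher, within 1 library set. The level was lower at each step up in concentration in 19 of 19 cytosolic and 6 of 13 mitochondrial members, against 3887 of 9534 genes (40.8%). Scaling by total counts instead moved the median of all genes at high against vehicle to 0.21, with 1483 of 9682 genes at least 1.5-fold lower and 2697 at least 1.5-fold higher. With that scaling 18 of 19 cytosolic (median -1.45) and 1 of 13 mitochondrial members (median 0.01) were at least 1.5-fold lower.

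Genes of other lists were lower in the same library too: 5 of 7 complex and elongation partners, 7 of 15 mitochondrial tRNA partners, 3 of 6 genes of tRNA export and amino acid sensing and 12 of 15 other ATF4 targets above the minimum were at least 1.5-fold lower, beside the 27.6% of all genes. Of the ATF4 targets 1 of 15, CEBPB, was at least 1.5-fold higher, at 111.4 CPM in Polygalae high and 61.2 CPM in vehicle. ATF3 and DDIT3, below the minimum, were at 17.9 and 12.7 CPM in Polygalae high, against 4.84 and 7.28 CPM in vehicle. ATF4 was not among them, at 346.7 CPM in Polygalae high and 266.6 CPM in vehicle. ASNS, which makes asparagine, was at 11.7 CPM in Polygalae high, against 95.7 CPM in vehicle, and PHGDH, of serine synthesis, at 4.53 CPM against 60.4 CPM. The summed epithelial markers were 8459 to 8839 CPM in the vehicle libraries, 7703 CPM in Polygalae low, 4859 CPM in medium and 1278 CPM in high. The leukocyte markers summed to 4.46 CPM and the fibroblast markers to 20.8 CPM in Polygalae high. The part of these shifts in the result was not tested.

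Aucklandiae Radix high, also a single library, showed a smaller shift. Of the cytosolic members 0 of 19 were at least 1.5-fold lower (median log2 ratio -0.22), and of the mitochondrial members 1 of 13 was, beside 5.25% of all genes (median -0.07). That member was MARS2, at 9.99 CPM in Aucklandiae high, against 18.2 CPM in vehicle, a log2 ratio of -0.81. The next were NARS2 (-0.54), MARS1 (-0.50) and PARS2 (-0.41), while RARS1 (-0.01) and FARSA (0.02) were nearest to vehicle. MARS2 was at 13.2 CPM in both Aucklandiae low and Aucklandiae medium, and high against low gave 0 members in either class, beside 2.61% of all genes lower.

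The gene spans of some members, introns included, overlap that of a neighbour. Their values may depend on how reads were assigned, but how much of each overlap is exon was not measured. HARS1 and HARS2 overlap by 437 bases on opposite strands, KARS1 and TERF2IP by 858, YARS1 and S100PBP by 1387, SARS2 and MRPS12 by 349, CARS2 and ING1 by 868, and EARS2 and UBFD1 by 370. The span of YARS2 overlaps that of DNM1L by 18161 bases on the opposite strand, more than the 2122 bases of the YARS2 transcript. DNM1L was at 156.5 CPM in vehicle. VARS2 overlaps GTF2H4 by 5865 bases and HARS2 overlaps ZMAT2 by 639 bases on the same strand. Pseudogene copies of the members were at or below 0.04 CPM in vehicle.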

How the data were processed

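Gene-level expected counts (RSEM, the estimate need not be whole) of 60 libraries were used as the authors deposited them; 10.5% of the values were not whole, and all were rounded. Per the submitters' processing notes, reads were handled with FastQC 0.11.9, Trim Galore 0.6.5, STAR 2.7.3a and RSEM 1.3.3 on GRCh38/hg38, and per the labels' protocols the libraries were strand-marking and sequenced as pairs. The strand setting of the counting is not given in the sources used here.

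Members and lists were chosen with earlier results of these data known. The model was fitted with edgeR 4.0.16 (quasi-likelihood, robust, TMM scaling, filter by group) in R 4.3.3 over the 54 libraries of the 19 replicated groups, with adjusted p-values (Benjamini-Hochberg) over all genes tested, and again over 52 libraries, leaving out the pair that stood apart. The fit was tested on simulated counts. No replicate pair agreed within sampling noise (chi-square over its degrees of freedom at least 1.86). Polygalae Radix and Aucklandiae Radix have no test, only log2 ratios with 1 CPM added. Alternatives were RLE size factors, no filter, a replicate block, DESeq2 1.42.0, each replicate left out, a pseudocount of 0.1 CPM and scaling by total counts. Lengths and overlaps were read from GENCODE 29, promoters from RefSeq.

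Levels by library are given for the members called the same way in Soshiho-tang high against vehicle and against low, the members called lower in either, the members called at the high dose of another extract, the 4 largest and 2 smallest changes in the unreplicated extracts, the extremes of each class by level, and up to 4 called genes of each other list. MARS1, IARS1, FARSA, CARS2, SARS2, ASNS, PHGDH, CEBPB, ATF3, DDIT3, XPO5, SLC7A5 and EIF2AK4 were added after their values were seen.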

Additional observations from a re-analysis of the deposited data

Results flagged for a closer look

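The change of 4 cytosolic synthetases differed between Soshiho-tang and Yijin-tang, the 2 water extracts of library set 8, at the same high concentration, by the edgeR test of Soshiho-tang high against Yijin-tang high. The difference on the log2 scale was 0.47 for CARS1 (higher in 2 of 2 Soshiho-tang libraries than in all 3 Yijin-tang libraries), 0.44 for GARS1, 0.37 for AARS1 and 0.34 for SARS1, with the same lack of overlap in each. Both extracts share the vehicle libraries, so their changes against vehicle are not independent. CARS1 and GARS1 were called in every fit without 1 library. AARS1 was called in none of these (edgeR, adjusted p = 0.0745 to 0.362) and was lost with the replicate block, and SARS1 was lost in 4 of 5 (adjusted p = 0.0212 to 0.255). With no filter on low counts 2 calls, CARS1 and GARS1, were left. How many of all genes separated in this way is not given. The cause was not tested.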

How the results depend on the processing

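Of 35 members, the count called moved with the set of libraries. With 52 libraries it was 21 in place of 8 for Soshiho-tang high against vehicle, 13 in place of 5 for high against low and 13 in place of 4 against Yijin-tang high. Against vehicle it was 3, 6, 2, 4 and 12 for the high groups of Yijin-tang, Schisandrae, Liriopis, Longan and Zizyphi, and 1 for Yijin-tang high against low. It was 1, 1, 2, 5 and 10 for the medium groups of Yijin-tang, Schisandrae, Liriopis, Longan and Zizyphi, 1, 2, 4, 1 and 10 for the low groups of Soshiho-tang, Yijin-tang, Schisandrae, Liriopis and Zizyphi, and 0 for Longan high against low. With no filter on low counts it was 4, 3 and 2 for the 3 Soshiho-tang high comparisons, 0, 1 and 1 for Zizyphi high, medium and low, 0 for Longan medium, 7 for Longan low and 1 for Longan high against low. DESeq2 called 1 member in Schisandrae high, Longan high and Soshiho-tang medium and 2 in Longan medium. RLE size factors kept every count within 1.5 times the main one. The shares of all genes called with no filter, with DESeq2 and with RLE size factors are not given. The counts of members from those fits therefore have no background to be read against.

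The replicate numbers did not pair the libraries (0 of 27 comparisons had all 3 same-numbered correlations above 0.1; they ran between -0.3 and 0.276). With the number as a replicate block, 9 members were called for Soshiho-tang high against vehicle, 4 against low and 3 against Yijin-tang high, where AARS1 was lost (adjusted p = 0.0846). No count moved by over 1.5 times under the block. The share of all genes called under the block is not given.

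Leaving out each replicate in turn gave 5 to 8 calls for Soshiho-tang high against vehicle, 2 to 3 against low and 2 to 3 against Yijin-tang high; CARS1 and GARS1 were called in all of these fits. It gave 1 to 2 for Zizyphi high, 1 to 2 for medium and 2 to 3 for low, 0 to 1 for Longan medium, 0 to 17 for Longan high against low (0 without Longan low replicate 3 or Longan high replicate 1), 3 to 21 for Longan low (3 without replicate 3) and 0 to 7 for Soshiho-tang medium (7 without replicate 2, which leaves the library that stood apart as the lone sample, assumed to vary like the other groups). The median of the cytosolic changes minus that of the mitochondrial ones in Soshiho-tang high was 0.25 against vehicle (0.21 to 0.27 over these fits), 0.21 against low (0.19 to 0.22) and 0.19 against Yijin-tang high (0.16 to 0.22). Scaling by total counts gave 1 mitochondrial member at least 1.5-fold lower in Polygalae high against vehicle and 0 in high against low. The cause of these moves was not tested. For the fits that left out a replicate, the share of all genes called is not given. Their counts of members called therefore have no background to be read against. With no library left out, 35.9% of all genes were called in Longan low and 18.8% in Longan high against low. The Longan counts thus cannot be read as a result about the synthetases.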
